A study of Bos taurus with 2 samples.

Results

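The 8 genes described here encode proteins of the epithelial seal and of the salt and water pumping that fill the cavity of a blastocyst. They are ATP1B1 (ENSBTAG00000002688), AQP3 (ENSBTAG00000008493), TJP1 (ENSBTAG00000015398), CGN (ENSBTAG00000017564), OCLN (ENSBTAG00000000561), F11R (ENSBTAG00000017846), CLDN4 (ENSBTAG00000026278) and CLDN7 (ENSBTAG00000019448). They were taken as a list of symbols, and 8 of 8 were found among the 35643 features that both libraries share. Their levels were read in each cluster of nuclei from bovine (Bos taurus) blastoids and blastocysts.

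The study profiled single nuclei of 2 sources by droplet RNA sequencing with molecular barcodes (UMIs). The first source was the 3L-blastoid, a blastocyst-like aggregate of 3 cultured cattle stem cell lines of wild-type genotype, with 8 bEPSC, 8 bXEN and 16 bTSC cells seeded in each microwell and cultured in ACL medium with LIF, activin A, CHIR99021 and the CEPT cocktail. The second was the wild-type bovine blastocyst at day 8. Both were frozen before nuclei were isolated, iMEF feeder cells were depleted by plating before aggregation, and the labels do not give how many blastoids, embryos or independent cultures entered a library. Each source had 1 library, so every comparison below is between these 2 libraries or between clusters of 1 library, with no replicate check and no p-value.

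In the embryo, the trophectoderm is the outer epithelium that forms the blastocoel. Sodium is pumped by the basolateral Na/K-ATPase, water follows through aquaporins, and tight junctions keep the fluid from leaking out. The hypoblast is the second epithelium to form, and lines the inner cell mass and later the cavity, while the epiblast gives rise to the embryo proper.

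After filtering, 1914 blastoid barcodes with 7481886 UMIs and 827 blastocyst barcodes with 6861558 UMIs were used, and 1 barcode sequence occurred in both libraries. Clusters were named from markers that exclude the 8 genes. A trophectoderm-like cluster was found in both libraries: 154 blastoid nuclei (median 14620 UMIs) and 235 blastocyst nuclei (median 8760 UMIs), each with 10 trophectoderm markers above the other clusters, GATA2, GATA3 and TFAP2C among them. Summed over 24 trophectoderm markers their levels were 5191 and 4879 CPM, with HAND1 at 0 in the blastocyst class, and summed over 30 hypoblast markers 4741 and 4810 CPM. The blastocyst also held a hypoblast-like cluster of 398 nuclei with 12 hypoblast markers (GATA4, HNF4A and PDGFRA among them). A further 75 blastocyst nuclei had NANOG among their leading genes but carried 5 epiblast and 4 hypoblast markers, and are called the NANOG cluster. In the blastoid, 141 nuclei led by LMX1A, LDB2, NLGN1 and DCC carried 4 neural and 3 hypoblast markers, and are called the DCC cluster. Of the blastoid clusters open to naming, none was hypoblast-like or epiblast-like. The ribosomal-rich group described next was set apart by its ribosomal protein share, whatever its markers.

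Of the blastoid barcodes, 1619 (84.6%) formed a ribosomal-rich group with no lineage name. In it 15.7% of UMIs came from ribosomal protein genes, and the median depth was 1922 UMIs. The group was not without lineage markers: it carried 9 trophectoderm markers (CDX2, ELF3 and KRT19 among them) and 10 hypoblast markers. Its trophectoderm markers summed to 13172.5 CPM, the highest sum of any class, and its hypoblast markers to 3857 CPM. A shallow blastocyst cluster of 119 barcodes (median 1632 UMIs, 4.50% ribosomal protein UMIs) was also set apart. Ribosomal protein genes took 2.49% of UMIs in the trophectoderm-like blastoid nuclei and 0.749% in their blastocyst counterparts. This difference lies alongside every comparison of the 2 libraries below.

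Levels are UMIs of a gene per 1000000 UMIs summed in the cluster (CPM), with an exact Poisson 95% interval in brackets. Ratios of CPM carry an exact conditional 95% interval, and shares of nuclei an exact Clopper-Pearson 95% interval. All 3 kinds cover counting error only. A gene was counted as past 2-fold where its CPM differed at least 2-fold and it had at least 50 UMIs in both sums together. CPM is not scaled by transcript length, so levels of different genes are not compared.

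**Figure D1:**
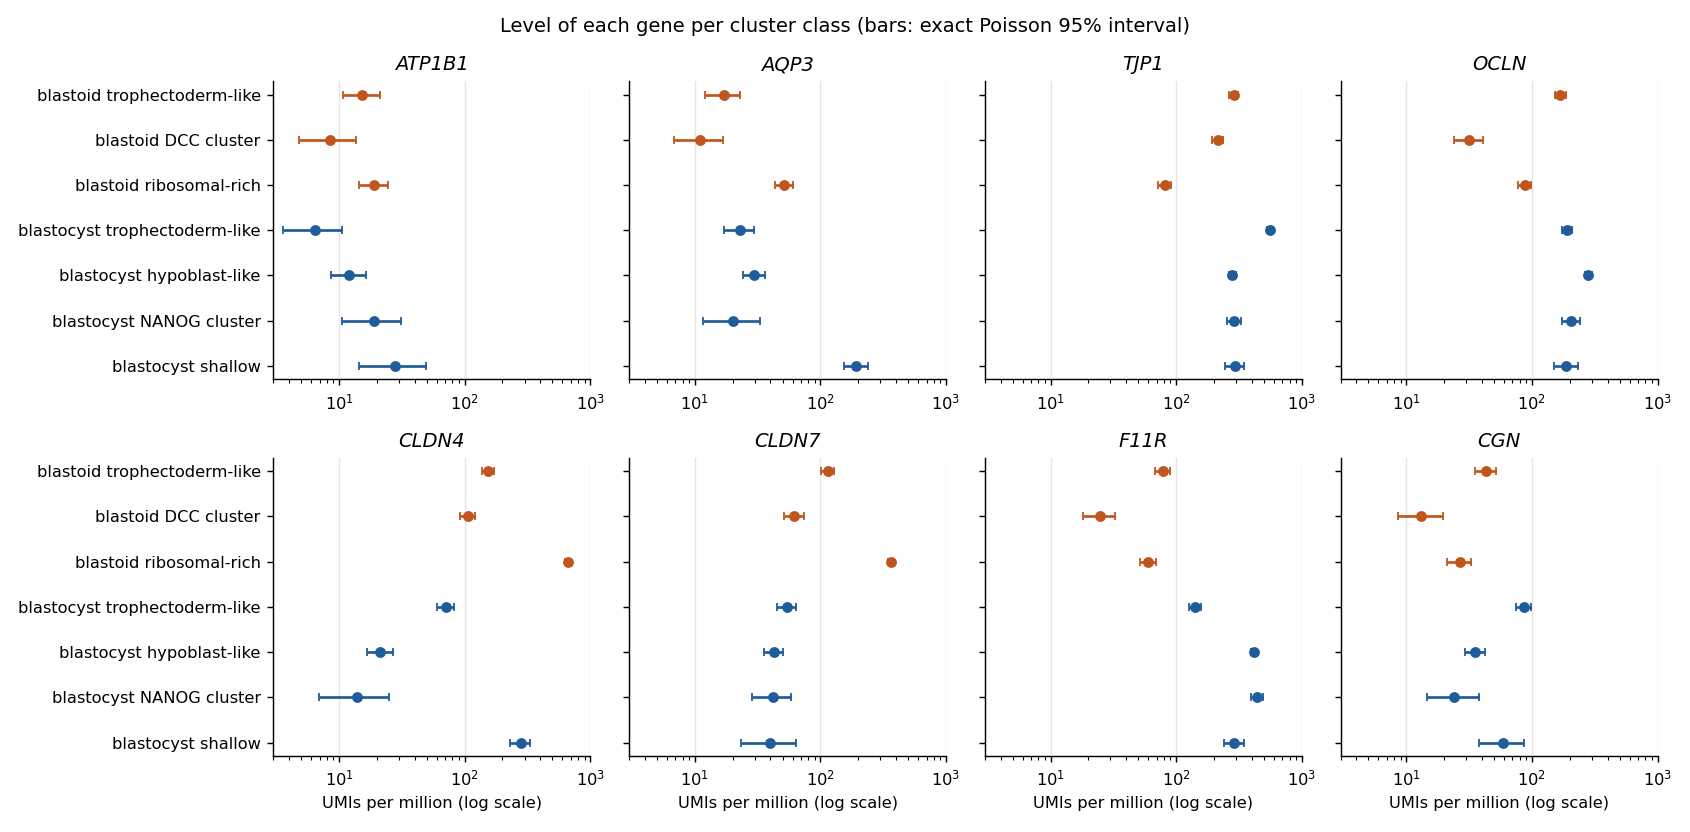
Level of each of the 8 genes (one panel per gene) in the 7 cluster classes, in CPM on a log axis; orange is the blastoid library, blue the blastocyst library, and bars are exact Poisson 95% intervals. TJP1 and CGN stood highest in the trophectoderm-like blastocyst nuclei, F11R in the hypoblast-like and NANOG clusters, and CLDN4 and CLDN7 in the ribosomal-rich blastoid barcodes.

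ATP1B1 and AQP3 were both sparse. ATP1B1 encodes the beta1 subunit of the Na/K-ATPase, which is needed for the pump to reach the membrane. Its level was 15.3 CPM (10.8 to 21.1) in trophectoderm-like blastoid nuclei and 6.44 CPM (3.61 to 10.6) in trophectoderm-like blastocyst nuclei, from 37 and 15 UMIs. It was 8.42 CPM in the DCC cluster, 12.1 CPM in the hypoblast-like cluster, 19.0 CPM in both the NANOG cluster and the ribosomal-rich barcodes, and 28.1 CPM in the shallow cluster. Among the blastocyst clusters the trophectoderm-like nuclei thus had the lowest value, 1.87-fold (1.01 to 3.64) below the hypoblast-like cluster. The 2.37-fold (1.27 to 4.66) higher level in the blastoid trophectoderm-like nuclei rested on a single nucleus that held 21 of the 37 UMIs. Without the richest nucleus of each class, the levels were 6.70 and 5.62 CPM.

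ATP1B3, which encodes another beta subunit, was counted among the listed ion transport genes and is named here after its values were seen. It stood at 830.1 CPM in the blastoid and 988 CPM in the blastocyst trophectoderm-like nuclei. In the blastocyst it was over 2-fold higher in trophectoderm-like than in hypoblast-like nuclei, where it stood at 421 CPM.

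AQP3 encodes an aquaglyceroporin, a channel for water and glycerol. Its level was 16.9 CPM (12.2 to 23.0) in trophectoderm-like blastoid nuclei and 22.8 CPM (17.1 to 29.8) in trophectoderm-like blastocyst nuclei, a ratio of 0.744 whose interval (0.483 to 1.14) spans 1. This ratio was not stable. On the log2 scale AQP3 was at -0.43 over all nuclei, -1.19 with at least 4000 UMIs, -1.36 with classes gated on marker UMIs and -1.53 with the shallow cluster named, and at -0.41 with at least 4000 UMIs once the deepest blastocyst barcode was left out. It turned to 1.95 with the upper limit for ribosomal-like RNA (defined with the claudins) taken away, which left 8.74 and 2.27 CPM. The hypoblast-like and NANOG clusters had 29.8 and 20.3 CPM and the DCC cluster 11.1 CPM. None of these neighbours in the order was separated by more than counting error within a library. The highest values lay in the barcodes with no lineage name, at 51.5 CPM (43.9 to 60.1) in the ribosomal-rich blastoid group and 192 CPM (153 to 239) in the shallow blastocyst cluster. In the shallow cluster, 41 of the 82 AQP3 UMIs came from 1 barcode, the deepest of the library at 80592 UMIs, and the level without it was 118 CPM.

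The scaffold genes TJP1 and CGN were lower in the blastoid trophectoderm-like nuclei. TJP1 encodes ZO-1, the cytoplasmic scaffold that ties claudins and occludin to actin. It stood at 286 CPM (265 to 308) in the blastoid and 560.2 CPM (530.2 to 591) in the blastocyst trophectoderm-like nuclei, 1.96-fold (1.78 to 2.15) lower in the blastoid. The blastocyst trophectoderm-like level was the highest of the 7 classes and was 2.01-fold (1.84 to 2.19) that of hypoblast-like nuclei (279 CPM). The NANOG cluster had 289 CPM and the DCC cluster 214 CPM, so the blastoid trophectoderm-like level was close to that of blastocyst nuclei outside the trophectoderm. The ribosomal-rich barcodes had 80.9 CPM, the lowest of the 7.

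CGN encodes cingulin, a ZO-1-binding protein of the cytoplasmic plaque. It stood at 43.0 CPM (35.1 to 52.1) in the blastoid and 86.4 CPM (74.8 to 99.2) in the blastocyst trophectoderm-like nuclei, 2.01-fold (1.58 to 2.57) lower in the blastoid. Within each library the trophectoderm-like class was above the clusters it was compared with. In the blastocyst the ratio was 2.43 (1.93 to 3.08) over hypoblast-like nuclei and 3.58 (2.24 to 6.08) over the NANOG cluster, and in the blastoid it was 3.27 (2.10 to 5.28) over the DCC cluster. TJP1 and CGN were lower in the blastoid trophectoderm-like nuclei under each of the 21 alternative settings, with log2 ratios of -1.02 to -0.86 for TJP1 and -1.14 to -0.78 for CGN. Some of the 21 could not move a ratio, namely those that changed only the UMI minimum or the limit for ribosomal-rich clusters. The TJP1 and CGN ratios were as follows against the 2-fold line. Both genes straddle it, and only CGN is counted as past it. Thinned to 2000 UMIs, a CGN UMI was found in 7.86% (4.20 to 13.6) of the trophectoderm-like nuclei from blastoids and 15.2% (10.7 to 20.4) of those from blastocysts.

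Of the transmembrane junction genes, F11R was the one that stood lower in trophectoderm-like blastocyst nuclei than in both the hypoblast-like and the NANOG cluster beyond counting error. It encodes JAM-A, an immunoglobulin-like adhesion protein of the tight junction that recruits polarity proteins. It stood at 419 CPM (397 to 441) in hypoblast-like nuclei, 443 CPM (397 to 492) in the NANOG cluster and 141 CPM (126 to 157) in trophectoderm-like nuclei of the blastocyst. The trophectoderm-like level was thus 2.97-fold (2.63 to 3.36) lower than the hypoblast-like level and 3.14-fold (2.69 to 3.66) lower than the NANOG cluster, which overlapped each other. In the blastoid the order was the other way round. The trophectoderm-like nuclei had 78.1 CPM (67.4 to 90.1), 3.16-fold (2.28 to 4.44) more than the DCC cluster (24.7 CPM), although the DCC cluster is not a counterpart of either blastocyst cluster. Between the trophectoderm-like classes F11R was 1.80-fold (1.503 to 2.17) lower in the blastoid.

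At equal depth the F11R pattern was also seen in the shares of nuclei. With each nucleus thinned to 2000 UMIs (expected share over all thinnings), F11R was detected in 54.3% (49.1 to 59.2) of hypoblast-like nuclei, 56.1% (44.1 to 67.5) of the NANOG cluster and 24.1% (18.8 to 30.2) of trophectoderm-like blastocyst nuclei. The share was 14.1% (8.88 to 20.6) in trophectoderm-like blastoid nuclei and 4.57% (1.59 to 9.09) in the DCC cluster. Thinning left out 7 hypoblast-like, 0 NANOG-cluster, 3 and 4 trophectoderm-like (blastocyst and blastoid) and 1 DCC-cluster nucleus. Unthinned, the shares were 87.2%, 98.7%, 64.7%, 59.7% and 22.0% in the same order of classes.

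OCLN encodes occludin, a membrane-spanning protein of the tight junction strand. It hardly differed between the trophectoderm-like classes, at 168 CPM (152 to 185) in the blastoid and 189 CPM (172 to 208) in the blastocyst, 1.13-fold lower in the blastoid with an interval of 0.982 to 1.29. Hypoblast-like nuclei had 282 CPM (264 to 301), so the blastocyst trophectoderm-like level was 1.49-fold (1.33 to 1.67) lower than theirs. The NANOG cluster had 205 CPM and did not differ from the trophectoderm-like nuclei beyond counting error. In the DCC cluster OCLN was at 31.6 CPM (24.1 to 40.7), and the blastoid trophectoderm-like level was 5.33-fold (4.05 to 7.11) higher, the largest ratio of the 8 genes in that comparison. Its thinned share was 26.8% (19.8 to 34.5) in trophectoderm-like blastoid nuclei and 5.24% (2.03 to 10.0) in the DCC cluster.

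CLDN4 encodes a sealing claudin and was the gene of the 8 with the largest ratios in favour of trophectoderm within the blastocyst. It stood at 70.9 CPM (60.5 to 82.6) in trophectoderm-like nuclei, 21.4 CPM (16.7 to 27.0) in hypoblast-like nuclei and 13.9 CPM (6.96 to 25.0) in the NANOG cluster. The ratios were 3.31 (2.49 to 4.44) and 5.08 (2.77 to 10.4). With a mitochondrial limit of 5% in place of 10% the clusters were drawn differently, and the ratio over hypoblast-like nuclei dropped to 0.29 on the log2 scale, from 1.73.

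In the blastoid, CLDN4 stood at 153 CPM (138 to 170) in trophectoderm-like nuclei, 106 CPM (91.7 to 122) in the DCC cluster and 662 CPM (634 to 691) in the ribosomal-rich barcodes. CLDN7, a claudin of the basolateral membrane as well as the junction in several epithelia, stood at 115 CPM (102 to 129), 62.1 CPM (51.4 to 74.4) and 364 CPM (343 to 386) in the same 3 classes. The ribosomal-rich barcodes thus had the highest level of both claudins among the 7 classes. CLDN7 varied little in the blastocyst, where it stood at 54.1 CPM in trophectoderm-like, 42.5 CPM in hypoblast-like, 41.8 CPM in NANOG-cluster and 39.8 CPM in shallow barcodes, all with overlapping intervals. Between the trophectoderm-like classes CLDN4 was 2.16-fold (1.80 to 2.62) and CLDN7 2.12-fold (1.71 to 2.64) higher in the blastoid.

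The claudin differences were set beside the ribosomal protein share. If every ribosomal protein UMI of the trophectoderm-like blastoid nuclei came from RNA with the makeup of the ribosomal-rich barcodes, that RNA would be 15.9% of their UMIs and would account for 105 of the 153 CPM of CLDN4 and 58.0 of the 115 CPM of CLDN7. This is an upper limit, since nuclei have ribosomal protein transcripts of their own. The same limit in the trophectoderm-like blastocyst nuclei, with the shallow barcodes under 4000 UMIs as the source, was 28.1 of 70.9 CPM for CLDN4 and 6.83 of 54.1 CPM for CLDN7. With these limits taken away the 2 classes had 48.0 and 42.8 CPM of CLDN4 and 56.9 and 47.3 CPM of CLDN7, and neither claudin was past 2-fold. These are values of the extreme case and not estimates. The sources were also unlike, with 15.7% ribosomal protein UMIs in the blastoid source and 7.26% in the blastocyst source. Whether such RNA was present in the nuclei was not tested. In the DCC cluster the limit reached 1.04 times the measured CLDN4 level and 0.972 times that of CLDN7, so neither claudin was measurable there beyond it. In hypoblast-like nuclei the limit was 1.38 times the CLDN4 level, and in the NANOG cluster 1.85 times.

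TJP1, F11R and CGN were little affected by the same limit. With it taken away TJP1 stood at 273 CPM in the blastoid and 531 CPM in the blastocyst trophectoderm-like nuclei. F11R stood at 68.6 and 112 CPM and CGN at 38.8 and 81.0 CPM. These 3 genes remained lower in the blastoid. OCLN stood at 154 and 177 CPM. The AQP3 and ATP1B1 levels in the blastocyst trophectoderm-like nuclei lay almost wholly within the limit, at 0.90 and 0.943 of the measured CPM.

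**Figure D2:**
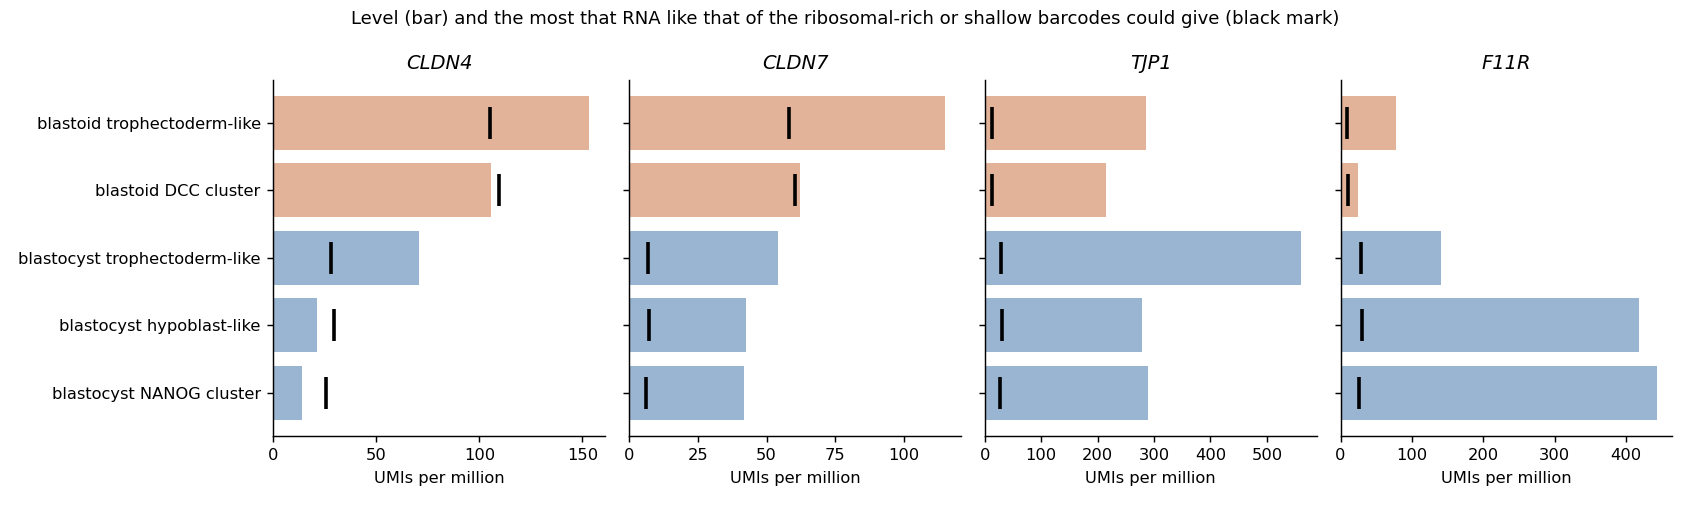
Level of CLDN4, CLDN7, TJP1 and F11R in 5 classes (bars, CPM, linear axis from 0), and the upper limit set by the ribosomal protein UMIs of each class (black mark). For CLDN4 the mark lies at 105 of 153 CPM in trophectoderm-like blastoid nuclei and beyond the bar in the DCC, hypoblast-like and NANOG clusters, while for TJP1 and F11R it lies near 0 next to most bars.

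Nuclei with a similar ribosomal protein share were also compared directly, over 25 blastoid and 56 blastocyst trophectoderm-like nuclei with 1% to under 2% of such UMIs. There CLDN4 was 1.55-fold (1.02 to 2.42) and CLDN7 1.49-fold (0.936 to 2.43) higher in the blastoid, closer to 1 than over all nuclei. TJP1 was 1.92-fold (1.58 to 2.33), F11R 1.65-fold (1.11 to 2.48) and CGN 1.71-fold (0.969 to 3.04) lower. OCLN was at a ratio of 1.18 (0.865 to 1.62) and AQP3 of 0.44 (0.142 to 1.28), both with intervals that span 1. The TJP1 difference was thus close to that over all nuclei. The claudin ratios were nearer 1, but their intervals include their ratios over all nuclei. Depth differed too, with 644078 UMIs in the 25 blastoid and 404491 UMIs in the 56 blastocyst nuclei. Within the blastoid class, CLDN4 stood at 123 CPM (97.1 to 153) in these 25 nuclei, 161 CPM (142 to 181) in the 111 with 2% to under 4% and 233 CPM (156 to 335) in the 17 with 4% or more. CLDN7 showed no such order, at 99.4, 123 and 105 CPM in the same 3 groups. TJP1 stood at 304, 284 and 225 CPM, with overlapping intervals. The blastocyst trophectoderm-like nuclei were read under 0.5%, at 0.5% to under 1% and at 1% to under 2%. There CLDN7 stood at 24.9, 59.2 and 66.8 CPM and CLDN4 at 47.4, 73.4 and 79.1 CPM.

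**Figure D3:**
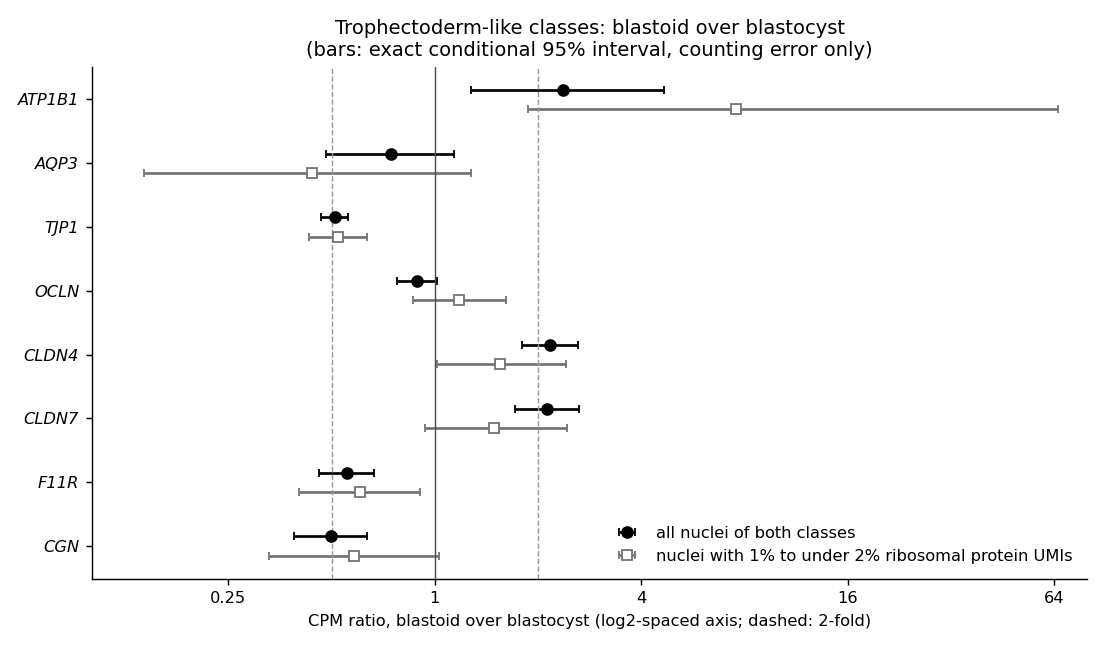
Ratio of CPM in trophectoderm-like blastoid over trophectoderm-like blastocyst nuclei for the 8 genes, on a log2-spaced axis with exact conditional 95% intervals; filled circles use all nuclei and open squares the 25 and 56 nuclei with 1% to under 2% ribosomal protein UMIs. TJP1, F11R and CGN lie below 1 in both sets, CLDN4 and CLDN7 move towards 1 in the matched set, and the square of ATP1B1 includes the nucleus with 21 of its UMIs.

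Across the 8 genes, 3 were at least 2-fold higher in the trophectoderm-like blastoid nuclei (ATP1B1, CLDN4 and CLDN7) and 1 at least 2-fold lower (CGN). Of all 9877 genes with at least 50 UMIs, 15.5% were higher and 11.7% lower by that measure. The ATP1B1 call rested on a single nucleus. Without the richest nucleus of each class its levels were 6.70 and 5.62 CPM, not past 2-fold. The median log2 ratio of the 8 was -0.30, beside 0.05 over all genes. In the blastocyst, 3 of the 8 were at least 2-fold higher in trophectoderm-like than in hypoblast-like nuclei (CLDN4, CGN and TJP1) and 1 lower (F11R), beside 11.9% and 14.8% of 10461 genes. The medians were -0.02 and -0.21.

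Against the NANOG cluster, 7 of the 8 had enough UMIs, of which 2 were at least 2-fold higher in trophectoderm-like nuclei (CLDN4 and CGN) and 1 lower (F11R). Over 8305 genes the shares were 16.8% and 13.2%. ATP1B1 had 15 UMIs on each side and was not counted. The comparison of the trophectoderm-like blastoid nuclei with the DCC cluster was added after values had been seen: 3 of the 8 were at least 2-fold higher (OCLN, CGN and F11R) and 0 lower, beside 16.2% and 17.2% of 10103 genes. There the median of the 8 was 0.87, beside 0.02 over all genes. These comparisons within a library share the trophectoderm-like nuclei with the comparison between libraries and are not independent of it.

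**Figure D4:**
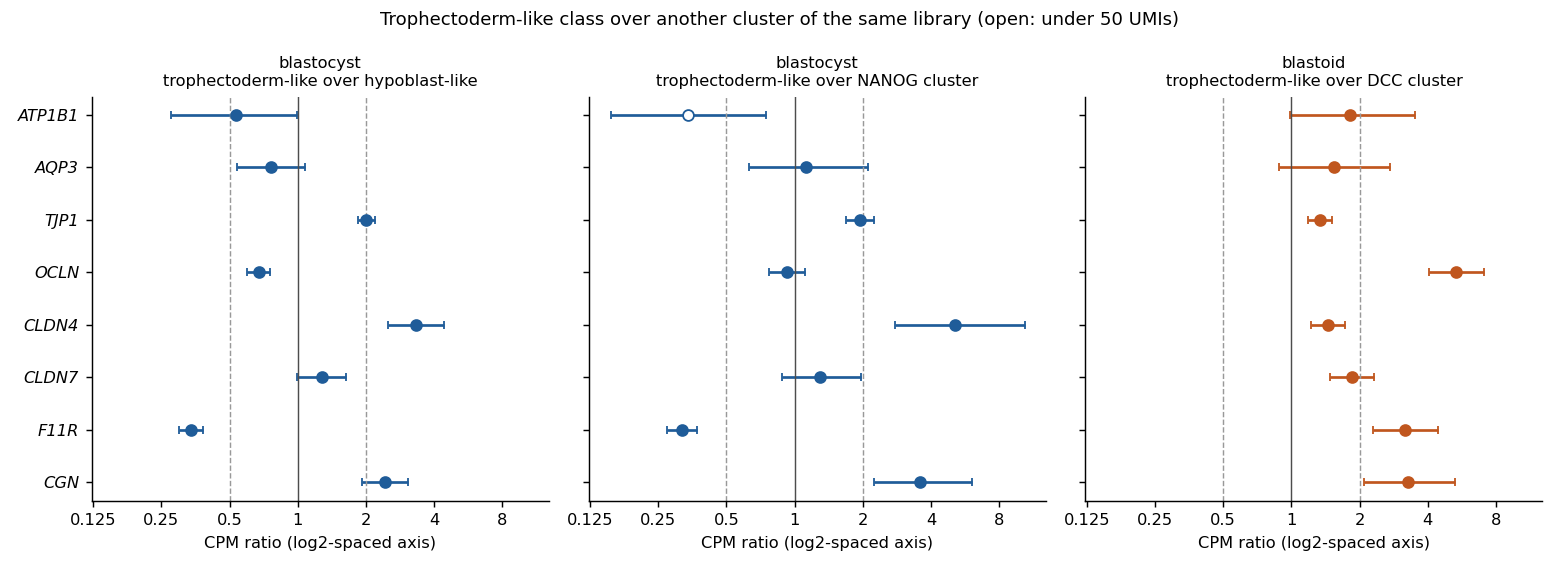
Ratio of CPM in the trophectoderm-like class over the hypoblast-like and NANOG clusters of the blastocyst (blue) and over the DCC cluster of the blastoid (orange), log2-spaced axis, with exact conditional 95% intervals and 2-fold as dashed lines; the open circle had under 50 UMIs. CLDN4 and CGN lie to the right and F11R to the left in both blastocyst panels, and all 8 genes lie to the right of 1 in the blastoid panel, ATP1B1 and AQP3 with intervals that span 1.

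Taken over whole libraries, in which the makeup of clusters and the level within them cannot be told apart, CLDN4 was 6.68-fold (5.98 to 7.47) and CLDN7 4.48-fold (3.97 to 5.07) higher in the blastoid. F11R was 5.62-fold (5.06 to 6.25), OCLN 2.37-fold (2.17 to 2.59) and TJP1 2.08-fold (1.95 to 2.22) lower. That is 2 of 8 higher and 3 of 8 lower by at least 2-fold, beside 22.3% and 18.7% of 14066 genes. The ribosomal-rich group made up 84.6% of the blastoid barcodes, and with barcodes of at least 4000 UMIs only, the CLDN4 ratio was 1.46 on the log2 scale, against 2.74 over all barcodes. At that depth CLDN7 was at 0.999 against 2.16, and TJP1 at -0.58 against -1.06, both no longer past 2-fold. AQP3 was at -1.19 against -0.28, past 2-fold lower in place of TJP1. At the same depth but without the deepest blastocyst barcode, AQP3 was at -0.91 and not past 2-fold. CLDN4 was then at 1.82.

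Counted together, at 2000 UMIs 80.3% (72.7 to 86.1) of trophectoderm-like blastoid and 86.4% (81.6 to 90.7) of trophectoderm-like blastocyst nuclei had a UMI of at least 1 of the 8 genes. The shares were 87.1% (83.5 to 90.4) in hypoblast-like nuclei, 86.5% (76.8 to 93.4) in the NANOG cluster and 61.6% (52.8 to 69.5) in the DCC cluster. The DCC cluster was thus the lowest, and the other 4 had overlapping intervals. Which genes made up the share differed. At that depth, TJP1 was seen in 39.8% (32.1 to 48.3) of trophectoderm-like blastoid and 62.1% (55.5 to 68.3) of trophectoderm-like blastocyst nuclei. CLDN4 was seen in 27.5% (20.4 to 35.2) and 13.5% (9.26 to 18.4), beside 21.8% (15.6 to 29.9) in the DCC cluster and 4.17% (2.36 to 6.56) in hypoblast-like nuclei.

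With the main settings, the mix of the 2 member claudins set the trophectoderm-like blastocyst nuclei apart from the hypoblast-like and NANOG clusters. There were 1.31 (1.03 to 1.66) CLDN4 UMIs for each CLDN7 UMI in trophectoderm-like blastocyst nuclei, 0.504 (0.373 to 0.674) in hypoblast-like nuclei and 0.333 (0.152 to 0.676) in the NANOG cluster. The limit for ribosomal-like RNA was 1.38 and 1.85 times the CLDN4 level of the hypoblast-like and NANOG clusters. With a mitochondrial limit of 5%, hypoblast-like nuclei had more CLDN4 than CLDN7, at 57.6 against 48.9 CPM. In the blastoid the ratio was 1.33 (1.14 to 1.56) in trophectoderm-like nuclei, 1.70 (1.35 to 2.16) in the DCC cluster and 1.82 (1.69 to 1.95) in the ribosomal-rich barcodes. The DCC cluster thus overlapped both other blastoid classes, the hypoblast-like and NANOG clusters overlapped each other, and so did the trophectoderm-like classes of both libraries. The shallow blastocyst cluster stood highest at 7.00 (4.19 to 12.4), with 74 of its 119 CLDN4 UMIs in the deepest barcode.

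Other genes of the junction and transport machinery are given next, by list, for the comparison of trophectoderm-like classes between libraries. Beside each count stand all 9877 genes, of which 15.5% were at least 2-fold higher and 11.7% lower in the blastoid. Of 20 other claudins 3 had enough UMIs: CLDN6, an early epithelial claudin, was higher in the blastoid (112 against 52.4 CPM) and CLDN23 lower (16.5 against 60.1 CPM). Of the 28 other tight junction genes found, 24 were counted, with 4 higher and 2 lower and a median log2 ratio of -0.18. The higher ones included ILDR1 (27.7 against 6.87 CPM) and MARVELD3 (16.5 against 4.73 CPM), which serve tricellular and bicellular junctions, and CGNL1, the paralog of CGN (61.6 against 17.6 CPM). TJP3, encoding ZO-3, was 4.34-fold (3.42 to 5.56) lower in the blastoid (35.6 against 154 CPM), and MAGI3, a scaffold with several PDZ domains, 2.11-fold (2.00 to 2.23) lower.

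In the ion transport list, of 18 counted, 4 were higher and 6 lower in the blastoid trophectoderm-like nuclei, beside the same 15.5% and 11.7% of all genes. The sodium/proton exchangers SLC9A2 (42.6 against 2.58 CPM) and SLC9A3 (165 against 25.8 CPM) and the potassium channel KCNQ1 (416 against 84.6 CPM) were higher. The bicarbonate transporter SLC4A4 (3.31 against 40.4 CPM), the anion exchanger SLC4A2 (7.03 against 21.5 CPM) and the carbonic anhydrase CA12 (23.1 against 70.9 CPM) were lower. Among the 11 other aquaporins found, only AQP11 had at least 50 UMIs and it was 2.18-fold (1.61 to 2.96) higher. Of 19 adherens junction and desmosome genes 1 was higher (NECTIN3, a nectin) and 0 lower. Of 18 apical and polarity genes 0 were higher and 2 lower, MYH9 (a nonmuscle myosin heavy chain, 155 against 419 CPM) and LLGL1 (a basolateral polarity protein, 19.8 against 44.7 CPM).

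**Figure D5:**
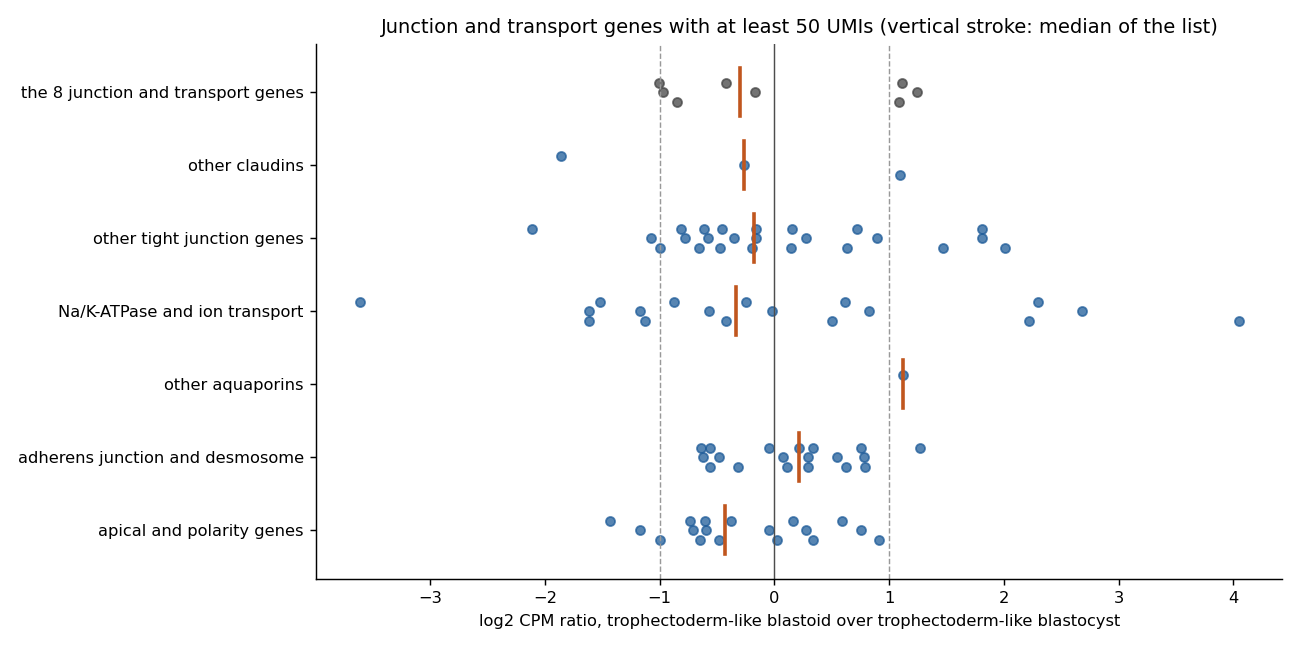
Log2 ratio of CPM, trophectoderm-like blastoid over trophectoderm-like blastocyst, of each gene with at least 50 UMIs in the 8 genes and 6 lists (1 point per gene, orange stroke the median, dashed lines 2-fold, no error drawn). The ion transport list spreads from SLC4A4 on the left to SLC9A2 on the right, and the adherens junction and desmosome list stays within 2-fold except NECTIN3.

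The same lists were read in the blastocyst, trophectoderm-like over hypoblast-like. Over all 10461 genes, 11.9% were at least 2-fold higher and 14.8% lower in that comparison. Of 23 tight junction genes 8 were at least 2-fold higher and 4 lower, with a median log2 ratio of 0.63. AMOT, a regulator of Hippo signalling at the junction, was at 102 against 4.52 CPM and PATJ, a polarity scaffold, at 833 against 172 CPM. JAM2, another JAM of the F11R family, was at 2.58 against 18.4 CPM and so was lower in trophectoderm-like nuclei, as F11R was. Of 19 adherens junction and desmosome genes 8 were higher and 0 lower, led by DSC2 (187 against 3.92 CPM) and DSP (264 against 21.7 CPM), both desmosomal. Of 18 apical and polarity genes 9 were higher and 0 lower, among them the epithelial transcription factor genes GRHL1 (427 against 28.3 CPM) and GRHL2 (239.7 against 12.1 CPM). The ion transport list was split, with 6 higher and 6 lower of 18 and a median log2 ratio of -0.44: SGK1 was at 76.9 against 8.44 CPM, and SLC4A7, a bicarbonate cotransporter, at 50.7 against 883 CPM.

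Genes whose levels over the 7 clusters were most like those of a member were listed by Pearson correlation of log2(CPM + 10), over 8564 genes. The 7 points share 2 libraries, and depth and ribosomal share differ among them, so the values are a description only. CLDN4 was most like CLIC1, SFN and ATP6V0C (r of 0.993 to 0.996), and F11R most like SOCS6, RPIA and MRPL48 (r of 0.985 to 0.986). TJP1 was most like ITPK1, HERC2 and SLC25A16, CGN like CAPZA1, MICALL2 and AP2A1, and CLDN7 like DHRS9, PLBD2 and SHISA4. OCLN was most like CKS1B, C21H15orf39 and CAMSAP3, and AQP3 like EIF3A, DYNC1H1 and JMJD6. Among the members, F11R and OCLN had an r of 0.878 and CLDN4 and CLDN7 of 0.725, while CLDN7 and TJP1 ran opposite at -0.790.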

How the data were processed

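The deposited matrices hold UMI counts for each feature and barcode, with Cell Ranger 7.2.0 named per the file headers and Cell Ranger 7.1.0 and Seurat 4.3.0 per the submitters' processing notes. The genome build and annotation are not given in the sources used here, so no coordinates are printed. Gene symbols came from the deposited feature lists, and 8 of 8 members matched a RefSeq symbol.

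Barcodes with at least 500 genes and under 10% mitochondrial UMIs were kept, which left 1944 of 1957 blastoid and 833 of 944 blastocyst barcodes. The 30 and 6 with the highest Scrublet scores (0.8% for each 1000 barcodes) were then removed as doublets. Each library was clustered alone with scanpy 1.11.5 and leidenalg 0.10.2 (2000 variable genes without markers, members and listed genes, 30 components, 15 neighbours, resolution 0.5). A cluster was named from at least 3 markers (at least 100 UMIs and 1.5 times the CPM elsewhere), at least 2 times as many as of any other class. Clusters over 5% ribosomal protein UMIs were left unnamed. Setting apart the shallow cluster, whose median depth is under the library's divided by 3, was chosen after seeing the data, as were the matched ribosomal share, the limit for ribosomal-like RNA and the comparisons without single barcodes. No blastocyst cluster qualified as epiblast-like, so the planned comparison with epiblast-like nuclei was made with the NANOG cluster instead.

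Counts were summed per class over nuclei, which are not replicates, and no test was run. The ratio and interval code was tested on simulated counts. The members and gene lists were chosen with earlier results of these data known. From each list the 3 highest and 3 lowest log2 ratios past 2-fold could be named. Protein and promoter sequences were not used here. Alternatives covered filters, doublets, resolution, variable genes, components, class definition, depth, CPM denominator, centring, weighting and minimum UMIs. One gene of the ion transport list is not reported here.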

Additional observations from a re-analysis of the deposited data

How the results depend on the processing

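With 1 library for each source, no replicate could be left out. No paired analysis was possible because the labels give no replicate numbers. Of the log2 ratios of single genes recomputed under alternatives, 710 stayed within the counting interval of the value reported, 81 moved outside it and 1 reversed. The 710 include settings that could not move a ratio. A changed UMI minimum alters only which genes are counted, and a higher limit for ribosomal-rich clusters renamed no cluster. Among ratios reported as past 2-fold, 1 changed sign: ATP1B1 between trophectoderm-like classes was -0.49 with classes gated on marker UMIs. Ratios within 2-fold also turned: between the trophectoderm-like classes AQP3 (up to 1.95) and OCLN (up to 0.24), over hypoblast-like nuclei AQP3 (up to 0.72), over the NANOG cluster AQP3 (down to -0.75) and OCLN (up to 1.74), between whole libraries AQP3 (0.01), and over the DCC cluster ATP1B1 (-0.15). For the trophectoderm-like blastoid over the trophectoderm-like blastocyst, the members at least 2-fold lower were 0 with a minimum of 1000 genes, without doublet removal, at resolution 1.0, with more variable genes, without ribosomal and mitochondrial UMIs, within 1% to 2% ribosomal share and with at least 4000 UMIs without the deepest barcode. Within 1% to 2% ribosomal share AQP3 was at -1.19 but had too few UMIs to be counted. The members at least 2-fold lower were 2 after centring on the median of all genes and with the shallow cluster named, and 3 in the gated classes. The members at least 2-fold higher were 1 in the gated classes and with the shallow cluster named, and 0 within 1% to 2% ribosomal share when ATP1B1 has too few UMIs, and the median was -0.86 in the gated classes. CLDN4 between these classes was 0.57 on the log2 scale with the shallow cluster named, 0.66 with at least 4000 UMIs and 1.14 with the deepest barcode then left out.

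For the trophectoderm-like over hypoblast-like blastocyst, the members at least 2-fold lower were 2 with a minimum of 200 genes, a mitochondrial limit of 5%, resolution 0.3, gated classes, at least 4000 UMIs (with and without the deepest barcode) and the mean over nuclei, and 3 less the ribosomal-like RNA. The members higher were 1 with the mitochondrial limit of 5% and within 1% to 2% ribosomal share. The median was 0.56 with a minimum of 1000 genes, 0.50 with the shallow cluster named and -0.94 within 1% to 2% ribosomal share. Within that share only TJP1, OCLN and F11R had at least 50 UMIs. The count and the median there rest on these genes alone, and -0.94 is the value of OCLN. Against the NANOG cluster, a minimum of 1000 genes gave 4 higher, 0 lower, a median of 1.41 and a share of 72.6% (38.6 to 90.9) of thinned nuclei with any member UMI. The NANOG cluster was drawn anew there and held fewer nuclei than the 75 used above, so these are not values of the same nuclei. A minimum of 10 UMIs gave 2 lower. Between whole libraries, at least 4000 UMIs, with and without the deepest barcode, gave 1 higher. Over the DCC cluster, less the ribosomal-like RNA, 7 were higher with a median of 2.18. The limit itself took most of the DCC level of 3 of the genes, leaving CLDN4 at 0, CLDN7 at 1.71 and AQP3 at 2.51 CPM. Thinning to 4000 UMIs raised the share with any member UMI to 96.1% and 97.2% in the trophectoderm-like blastoid and blastocyst nuclei, 97.4% in hypoblast-like nuclei, 97.7% in the NANOG cluster and 83.8% in the DCC cluster, and within 1% to 2% ribosomal share the DCC cluster had 50.9%. Gated classes gave no NANOG, DCC or whole-library value, the ribosomal-like limit none for whole libraries, and the 1% to 2% share none for the NANOG cluster or whole libraries. The cause of these shifts was not tested beyond the definition of each setting.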

Other observations

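At a finer resolution of 1, the hypoblast-like nuclei of the blastocyst split into 3 clusters of 169, 136 and 89 nuclei. F11R stood at 449 CPM (415 to 486), 402 CPM (367 to 439) and 379.7 CPM (335 to 429) in them, and OCLN at 245 CPM (220.0 to 273), 296 CPM (266 to 328) and 329 CPM (287 to 376). The cluster with the most F11R thus had the least OCLN, with intervals that did not overlap between the first and the last cluster for OCLN. The trophectoderm-like nuclei split into clusters of 129 and 101 nuclei, with CLDN4 at 58.0 CPM (45.9 to 72.4) and 89.4 CPM (71.3 to 111) and TJP1 at 540.1 CPM (502 to 581) and 567 CPM (520.0 to 617). Of the NANOG cluster, 16 nuclei formed a cluster that met the naming rule as epiblast-like, in which F11R stood at 301 CPM (223 to 397), OCLN at 102 CPM (59.6 to 164) and TJP1 at 295 CPM (218 to 390.0), and CLDN4 and AQP3 had 1 UMI each. These splits were read after the values of the coarser clusters were known.

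The shallow blastocyst barcodes split into an unnamed cluster of 64 barcodes and a ribosomal-rich cluster of 62, both mostly from the shallow cluster. CLDN4 stood at 467 CPM (379 to 568) and AQP3 at 288 CPM (219.9 to 369) in the ribosomal-rich one, against 90.4 and 79.1 CPM in the other. TJP1 went the opposite way, at 179 CPM against 527 CPM. The deepest blastocyst barcode of 80592 UMIs, beside 34356 in the next, held 74 CLDN4, 41 AQP3, 18 TJP1 and 16 F11R UMIs. The part of that barcode in the values of the shallow cluster is given in the levels without it, 130.1 CPM for CLDN4 and 118 CPM for AQP3.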
